A study of Mus musculus with 6 samples.

Results

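The genes described here encode the machinery of autophagy, the kinase complexes built around mTOR, and the proteins that switch the first of these complexes, mTORC1, on and off at the lysosome. They were chosen by symbol alone: the numbered Atg genes, the Map1lc3 and Gabarap genes, the Wipi and Wdr45 genes, Ulk1 to Ulk4, Becn1, Pik3c3, the receptor genes Sqstm1, Optn and Nbr1 with the kinase gene Tbk1, the mTOR complex genes Mtor, Rptor, Rictor and Mlst8, and the regulators Tsc1, Tsc2, Rheb, the Rrag genes and the Lamtor genes. The rule found 51 of the 12125 genes listed in the deposited table. Of these, 47 were among the 9966 genes that reached 10 normalized counts in at least 3 libraries and were tested, and the other 4, Ulk3, Ulk4, Atg9a and Mlst8, are given by their values only.

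RNA was sequenced from kidney cells of 3 Trf1+/+ and 3 Trf1flox/flox mice, all carrying Col1a2-CreERT2, which drives a tamoxifen-inducible Cre recombinase from a collagen promoter active in fibroblasts, and a KFP allele, a red fluorescent reporter that Cre switches on. Male and female mice aged 6 to 8 weeks received intraperitoneal tamoxifen 3 times a week for 8 weeks, so Cre and tamoxifen are common to both groups, which differ in whether the Trf1 alleles can be deleted. Cells were sorted by CD29, an integrin of the cell surface, and KFP, and 500 cells were taken per library. The labels number no mice and name no sequencing batch, so p-values measure the spread between these libraries, and replicate numbers (1 to 3 in each genotype) pair no samples. Values below are always given in the order of replicates 1, 2 and 3.

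Autophagy encloses cytoplasm and damaged organelles in a double membrane that fuses with the lysosome. The ULK1 kinase complex starts the process, a lipid kinase complex around Beclin 1 marks the membrane, and 2 ubiquitin-like conjugation systems attach proteins of the ATG8 family (LC3 and GABARAP) to it, where receptors such as p62 bring in the cargo. When amino acids are plentiful, mTORC1 is brought to the lysosome by the Rag GTPases and the Ragulator complex, is activated there by RHEB, and holds ULK1 in check. The TSC complex turns RHEB off. Autophagy is known to be active in the epithelium of the kidney tubule, where it removes damaged mitochondria and lysosomes.

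Each library held between 10263382 and 12248797 reads on the listed genes, and a single read was worth 0.689 to 1.09 normalized counts. A gene with at most 3 reads was taken to be at the floor, which covers counting error only, because the reads were amplified by PCR without molecular identifiers. Terf1, which encodes TRF1, measured 0.891, 253 and 235 normalized counts across Trf1+/+ libraries and 110.0, 7.65 and 12.4 across Trf1flox/flox libraries. The lowest value was thus in a library labelled Trf1+/+, replicate 1, against its label. The same library stood apart from the others, with the fewest genes above 0 (8967, against up to 11593) and 34.4% of the tested genes at the floor, against 2.48% in the library with the smallest share. Of the 51 genes described here, 20 were at the floor in it, 11 in Trf1flox/flox replicate 2, and 3 or 4 in each of the other libraries. The markers of fibroblasts were all but absent: 2 of 10 were listed, Col1a2 had fewer than 3 reads in each library, and Dcn, a matrix proteoglycan, reached 97.3 normalized counts at most. The 11 proximal tubule markers summed to between 31370 and 156524 normalized counts and the 5 of the loop of Henle and distal tubule to between 55528 and 138180. The samples are labelled fibroblasts, but tubular markers far exceeded fibroblast markers in each library, and they are called sorted kidney cells here. The sums of the 8 marker lists overlapped between the genotypes (exact two-sided permutation test, unadjusted p of 0.5 to 1, adjusted p of 1), but no smaller p than 0.1 is possible with 3 against 3, and a sum is set by its most abundant genes. Of the 31 markers listed, 3 had groups that did not overlap, a count close to the background, since 8.68% of all tested genes were so placed. The distal tubule markers Slc12a3 (26373, 35066 and 25899 against 17956, 14271 and 18752 normalized counts) and Calb1 (27371, 16530 and 11368 against 11124, 1341 and 7907) were lower in each Trf1flox/flox library, and the proximal tubule transporter gene Slc22a8 (0.891, 477 and 636 against 1049, 710.3 and 1264) was higher. Their part in the differences below was not tested. Xist, the RNA of the inactive X chromosome, stayed at or under 0.985 normalized counts across Trf1+/+ libraries and was at 1565, 55.7 and 0 across Trf1flox/flox libraries. The Y chromosome genes Ddx3y, Uty, Eif2s3y and Kdm5d summed to 1993, 1825 and 2639 across Trf1+/+ and to 7.73, 1263 and 950 across Trf1flox/flox libraries. Trf1flox/flox replicate 1 alone thus had high Xist with almost no Y chromosome signal, so the sexes were not balanced. Among the members, Atg4a and Wdr45 lie on chromosome X, and the part of sex in the differences below was not tested.

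Before the values, the promoters of a few members show how the genes differ in one feature that the choice did not use. TFEB, a factor that mTORC1 keeps out of the nucleus, binds lysosome and autophagy genes at elements built around the E-box CACGTG, which reads the same on both strands. The 250 bases before the RefSeq start held at least 1 CACGTG in 7 of the 44 members matched to RefSeq (15.9%), namely Atg3, Atg5, Atg7, Lamtor1, Lamtor4, Rheb and Rragc, against 1854 of 27025 genes (6.86%) overall. The longer TCACGTGA, which contains the E-box, was found in 1 member (2.27%), Atg3, and in 0.907% of all genes. The sequences of 4 promoters are printed from RefSeq on GRCm38.p6, each on the plus strand and ending before the annotated gene: Atg3 (chr16:45158579-45158784) and Lamtor4 (chr5:138255232-138255481), which hold 2 E-boxes each, and Mtor (chr4:148448332-148448581) and Tsc1 (chr2:28640983-28641227), whose expression is described most closely below and which hold none. Capitals mark CACGTG.

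Atg3: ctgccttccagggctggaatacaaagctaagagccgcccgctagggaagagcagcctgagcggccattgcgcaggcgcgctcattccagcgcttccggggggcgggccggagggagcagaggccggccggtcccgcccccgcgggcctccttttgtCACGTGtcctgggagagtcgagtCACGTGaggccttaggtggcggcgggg
Lamtor4: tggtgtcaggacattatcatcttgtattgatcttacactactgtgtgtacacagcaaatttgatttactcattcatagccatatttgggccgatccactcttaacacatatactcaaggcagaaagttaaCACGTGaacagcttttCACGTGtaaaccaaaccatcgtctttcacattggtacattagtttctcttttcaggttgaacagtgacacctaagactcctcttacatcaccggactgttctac
Mtor: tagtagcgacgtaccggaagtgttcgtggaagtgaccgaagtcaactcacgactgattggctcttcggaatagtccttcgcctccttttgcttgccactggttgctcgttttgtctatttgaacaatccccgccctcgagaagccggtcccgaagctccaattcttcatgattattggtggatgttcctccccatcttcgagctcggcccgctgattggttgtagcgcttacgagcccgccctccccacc
Tsc1: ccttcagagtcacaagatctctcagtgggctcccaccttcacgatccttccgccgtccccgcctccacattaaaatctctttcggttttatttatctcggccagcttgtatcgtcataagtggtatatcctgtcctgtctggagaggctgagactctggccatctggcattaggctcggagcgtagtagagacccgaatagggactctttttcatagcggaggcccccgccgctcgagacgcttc

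A match of these letters is a description of the window and not a binding site, and none of the genes with an E-box in the window had groups that did not overlap.

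At the level of the whole group, no shift with genotype was detected. Of the 47 tested genes, 23 were higher and 24 lower in Trf1flox/flox than in Trf1+/+ libraries, with a median log2 fold change of -0.18, against 55.9% higher and a median of 0.20 over all tested genes. The fold change is the difference of the group means of log2(normalized count + 1). It can understate the change of genes that are low in both groups, and for several members at the floor in 1 library it was well above the fold change that edgeR fitted to the reads, which is given beside those genes. Without Trf1+/+ replicate 1 the medians were -0.05 and -0.03. No member passed an adjusted p of 0.05 in limma, and no gene did in the whole table (0% called); the smallest adjusted p was 0.970. At an unadjusted p under 0.05, limma called 1 member, Mtor, where 3.13% of all genes were called. Neither edgeR nor DESeq2 on the recovered reads called a member after adjustment, and DESeq2 called 0.582% of all genes after adjustment. Each had 1 member under an unadjusted 0.05, where edgeR had 196 and DESeq2 410 of the 9966 tested genes. The 2 genotypes did not overlap in 5 of the 47 members. Tsc1, Atg4d and Atg14 were higher in each Trf1flox/flox library than in any Trf1+/+ library, where 5.35% of all tested genes were so placed, and Mtor and Wdr45b were lower, as were 3.33% of all tested genes. These counts are close to the background. For 34 of the 47 (72.3%) the fold change was smaller than its own standard error, as it was for 65.8% of all genes, and the median standard error was 1.76 on the log2 scale. In these sorted samples, fewer cells of a type and less RNA per cell cannot be told apart.

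**Figure D1:**
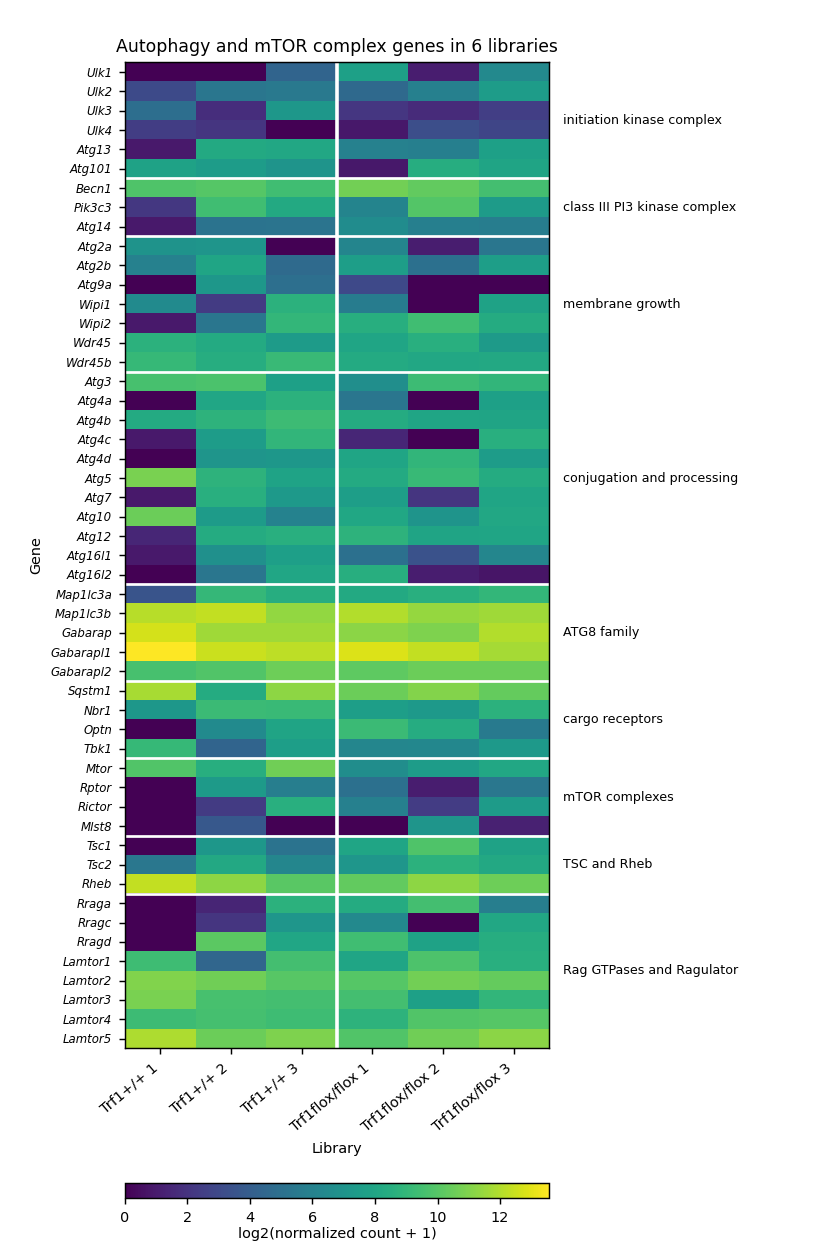
Level of the 51 genes in the 6 libraries, as log2(normalized count + 1), with rows grouped by role and the white vertical line between the genotypes. The dark cells of Trf1+/+ replicate 1 are the 20 genes at the floor there, and most rows of the ATG8 family, Rheb and the Lamtor genes are bright, apart from Map1lc3a in Trf1+/+ replicate 1 and Lamtor1 in Trf1+/+ replicate 2.

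The spread between libraries was smaller in the abundant members. The 14 members whose mean was 500 normalized counts or more (Becn1, Atg3, Atg5, Map1lc3b, Gabarap, Gabarapl1, Gabarapl2, Sqstm1, Mtor, Rheb, Lamtor2, Lamtor3, Lamtor4 and Lamtor5) were above the floor in each of the 6 libraries, and their median standard deviation within a genotype was 0.67 on the log2 scale. For the 26 members between 100 and 500 the median was 2.92, and 42.3% of them were above the floor in each library. All tested genes behaved alike at these levels, with medians of 0.76 and 2.62. Some members of the middle range were nonetheless steady, among them Wdr45b (0.27), Atg4b (0.39) and Wdr45 (0.62).

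**Figure D2:**
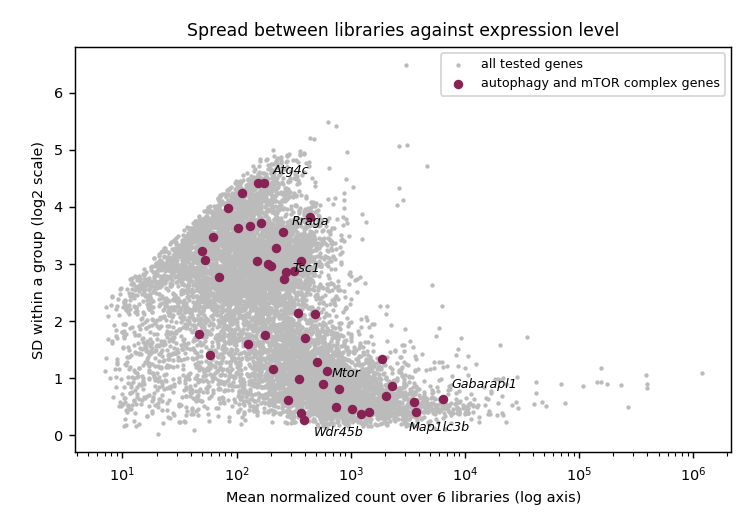
Standard deviation within a genotype on the log2 scale against the mean normalized count over the 6 libraries (log axis), for all 9966 tested genes (grey) and the 47 tested autophagy and mTOR complex genes (purple). The members lie within the cloud of all genes, with small spread above 500 normalized counts and a wide range below.

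Among the genes of the mTOR complexes, Mtor itself was lower in the Trf1flox/flox libraries. Mtor (ENSMUSG00000028991, chromosome 4, 148448611 to 148557683 on GRCm38) encodes the kinase shared by mTORC1 and mTORC2. It had 929, 369 and 1551 normalized counts across Trf1+/+ and 101, 179 and 277 in Trf1flox/flox libraries. The lowest Trf1+/+ library thus lay above the highest Trf1flox/flox library. Trf1+/+ libraries averaged 950 ± 591 (SD, n = 3) and Trf1flox/flox libraries 186 ± 88.4 (SD, n = 3); the log2 fold change was -2.24 (standard error 0.87), or 4.72-fold lower. The unadjusted p was 0.024 in limma and 0.022 in edgeR, and the adjusted p was 0.970 in limma and 0.318 in DESeq2, so the difference did not pass the test across all genes. It kept its direction when each library was left out, with log2 fold changes from -2.80 to -1.77; without Trf1+/+ replicate 1 it was -2.14. No other annotated gene shares its exons.

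The partners of mTOR gave no such pattern with all libraries included. Rptor, the scaffold of mTORC1, had 0, 169 and 55.2 normalized counts across Trf1+/+ and 30.9, 1.09 and 41.3 in Trf1flox/flox libraries. Rictor, the scaffold of mTORC2, had 0, 4.14 and 379 against 59.3, 4.37 and 176. Each of the 2 was at or near the floor in 1 or more libraries, and the groups overlapped. Without Trf1+/+ replicate 1, Rptor was lower in each Trf1flox/flox library (log2 fold change -2.79), as were 871 of the 9966 tested genes. Rictor still overlapped. Mlst8, a subunit of both complexes, was at the floor in 4 libraries and reached 133 normalized counts in Trf1flox/flox replicate 2, and 22.5% of its exonic length overlaps Bricd5 on the opposite strand. The 4 genes together summed to 929, 554 and 1986 normalized counts across Trf1+/+ and to 191, 318 and 496 in Trf1flox/flox libraries, with Mtor making up most of each sum.

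Of the members that form the TSC complex, the brake on RHEB, Tsc1 had groups that did not overlap and Tsc2 had groups that did, and neither passed the test across all genes. Tsc1 (ENSMUSG00000026812, chromosome 2, 28641228 to 28691167), which encodes hamartin, had 0, 146 and 34.5 normalized counts across Trf1+/+ and 247, 905 and 227 in Trf1flox/flox libraries. Each Trf1flox/flox library was higher than any Trf1+/+ library. Its log2 fold change was 4.42 (standard error 2.12, unadjusted p = 0.059, adjusted p = 0.970 in limma), and a large part came from the Trf1+/+ library in which it was listed at 0: without that library the log2 fold change was 2.36 (adjusted p = 0.999), and on the reads edgeR gave 2.80. Tsc2, which encodes tuberin, the subunit that acts on RHEB, had 40.1, 288 and 74.9 against 138, 420 and 291 normalized counts. These groups overlapped through Trf1+/+ replicate 2, at a log2 fold change of 1.41 (standard error 1.29). Tbc1d7, the third subunit of the complex and no member, had 516, 193 and 289 against 534, 0 and 241. Its log2 fold change was -2.60 in limma (standard error 2.14, adjusted p = 0.970), with the 0 in Trf1flox/flox replicate 2, and -0.26 in edgeR. Rheb was among the most abundant members, at 5179, 2491 and 1100 in Trf1+/+ and 1246, 2423 and 1513 in Trf1flox/flox libraries, and its range in Trf1+/+ enclosed all the Trf1flox/flox values (log2 fold change -0.54, standard error 0.60).

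Set against each other within a library, Tsc1 was at 0, 0.40 and 0.02 times the normalized count of Mtor in Trf1+/+ and at 2.45, 5.05 and 0.82 times it in Trf1flox/flox libraries. This ratio combines 2 genes already seen not to overlap, so it adds no separate evidence, and the genes differ in exonic length. It does not depend on how the libraries were scaled.

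**Figure D3:**
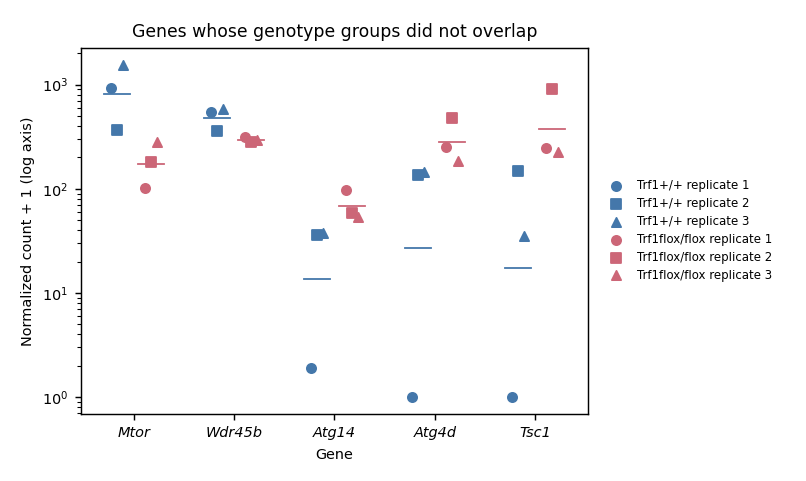
Normalized count + 1 (log axis) of the 5 members whose genotypes did not overlap, 1 point per library, with replicates by symbol shape and a line at the mean of the log values of each genotype. Mtor and Wdr45b are lower in each Trf1flox/flox library, and for Atg14, Atg4d and Tsc1 the lowest point is Trf1+/+ replicate 1.

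The Rag GTPases and the Ragulator complex, which place mTORC1 on the lysosome, were measured with very different precision, and none of the 8 had groups that did not overlap. The 5 Lamtor genes, which encode Ragulator, were above the floor in each library. Lamtor1, the lipid-anchored subunit, had 664, 21.5 and 741 normalized counts across Trf1+/+ and 247, 893 and 371 in Trf1flox/flox libraries, with the low value of Trf1+/+ replicate 2 below all others, and 18.7% of its exonic length overlaps Lrrc51 on the opposite strand. The other Ragulator genes ranged from 210 (Lamtor3 in Trf1flox/flox replicate 2) to 3872 (Lamtor5 in Trf1+/+ replicate 1). Their log2 fold changes lay between -1.26 for Lamtor3 (standard error 0.71) and 0.13 for Lamtor4 (standard error 0.62). The Rag genes varied far more. Rraga had 0, 1.66 and 413 normalized counts across Trf1+/+ and 321, 733 and 54.4 in Trf1flox/flox libraries, and its log2 fold change of 4.51 had a standard error of 2.63 (adjusted p = 0.970). It was the highest among the members in limma but not in edgeR, which gave 1.31, and it ranged from 1.31 to 7.18 over the alternatives. Rragc had 0, 3.31 and 138 against 82.5, 0 and 283. Both genes were at or near the floor in 2 Trf1+/+ libraries and high in the third, so the groups overlapped. Rragd ranged from 0 to 1143 with both extremes in Trf1+/+ libraries.

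The members of the kinase complex that starts autophagy were at or near the floor in 1 or more libraries, apart from Ulk2. Ulk1, the kinase that mTORC1 restrains, had 0, 0 and 19.7 normalized counts across Trf1+/+ and 212, 1.09 and 81.3 in Trf1flox/flox libraries. Trf1flox/flox replicate 2 was as low as the Trf1+/+ libraries, and the log2 fold change of 3.60 had a standard error of 2.24 (adjusted p = 0.970). Its relative Ulk2 ranged from 7.13 to 179, Atg13, the scaffold, from 0.891 to 305, and Atg101, its partner, from 0.859 to 349.7. Ulk3 and Ulk4, related kinases below the filter, reached 145 and 8.74. Rb1cc1, which encodes the scaffold subunit FIP200 and is no member by symbol, was more abundant, at 1703, 376 and 250.3 against 1141, 1475 and 604.

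The lipid kinase complex was better covered. Becn1, which encodes the scaffold Beclin 1, had 899, 1020 and 686 normalized counts across Trf1+/+ and 1646, 1250 and 728 in Trf1flox/flox libraries. The groups overlapped (log2 fold change 0.42, standard error 0.57), and 43.9% of its exonic length overlaps Cntd1 on the opposite strand; the library kit did not keep the strand, so reads of the 2 genes cannot be told apart there. Pik3c3, the catalytic subunit VPS34, had 3.56, 679 and 297 against 68.7, 969 and 172. Atg14, the subunit that directs the complex to autophagy, was weak and separate, at 0.891, 34.8 and 36.5 in Trf1+/+ and 97.1, 57.9 and 52.4 in Trf1flox/flox libraries. Its log2 fold change was 2.31 (standard error 2.32, adjusted p = 0.970) and fell to 0.88 without Trf1+/+ replicate 1, and edgeR gave 1.46.

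Among the genes that feed and shape the growing membrane, Wdr45b was the member with the smallest spread. Wdr45b (ENSMUSG00000025173, chromosome 11, 121327224 to 121354445), which encodes the phosphoinositide-binding protein WIPI3, had 539, 355 and 581 normalized counts across Trf1+/+ and 313, 283 and 293 in Trf1flox/flox libraries. All Trf1flox/flox values were below the lowest Trf1+/+ value, at means of 492 ± 120.1 (SD, n = 3) and 296 ± 15.1 (SD, n = 3). The log2 fold change was -0.70 (standard error 0.76, adjusted p = 0.970). Wipi2, which recruits ATG16L1 to the membrane, had 0.891, 38.9 and 505 in Trf1+/+ and 368, 681 and 329 in Trf1flox/flox libraries. Trf1+/+ replicate 3 lay among the Trf1flox/flox values, and the log2 fold change of 3.69 had a standard error of 1.92 (unadjusted p = 0.079 in limma). In edgeR it was 1.27 (unadjusted p = 0.449), and it ranged from 1.27 to 5.65 over the alternatives. Atg9a, the lipid scramblase of the vesicles that seed the membrane, had 0, 145 and 30.5 against 6.87, 0 and 0, below the filter, and 32.6% of its exonic length is shared with neighbouring genes. The lipid transfer gene Atg2a ranged from 0 to 135 with groups that overlapped. The other genes of this role, Atg2b, Wipi1 and Wdr45, ranged from 0 to 424, also with overlap.

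The genes of the 2 conjugation systems and of the ATG4 proteases that prepare ATG8 proteins summed to 4441, 3320 and 3163 normalized counts across Trf1+/+ and to 2329, 2292 and 2674 in Trf1flox/flox libraries. These sums did not overlap, but they did after upper-quartile scaling. The sums of all 51 members did not overlap either (31578 to 50166 against 28986 to 31135), so this was not particular to the conjugation genes. No test was made of the sums, since the members of the list were chosen with results known. Of the 11 genes, 8 were lower and 3 higher, and Atg4d alone had groups that did not overlap. Atg5, which is joined to ATG12, had 1858, 442 and 236 against 314, 558 and 329, so that its high mean in Trf1+/+ came from replicate 1. Atg12, the ubiquitin-like partner, had 1.78, 324 and 373 against 434, 239 and 249, with the opposite extreme in that same library. Atg7, the activating enzyme of both systems, had 0.891, 375 and 158 against 194, 3.28 and 254. In each of these 3 genes the groups overlapped. Atg16l1, which holds the conjugation complex at the membrane, had 0.891, 111 and 198 in Trf1+/+ and 30.9, 9.84 and 73.7 in Trf1flox/flox libraries. Without Trf1+/+ replicate 1 its groups did not overlap, whereas with that library they did (log2 fold change -0.24, standard error 2.53).

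Atg4d (ENSMUSG00000002820, chromosome 9, 21265293 to 21277772), one of the 4 proteases, had 0, 136 and 145 normalized counts across Trf1+/+ and 253, 479 and 182 in Trf1flox/flox libraries. It was higher in each Trf1flox/flox library, at a log2 fold change of 3.37 (standard error 2.13, adjusted p = 0.970) that fell to 0.99 without Trf1+/+ replicate 1 and was 1.60 in edgeR. Of its exonic length, 19.3% overlaps Kri1 on the opposite strand. The other proteases, Atg4a, Atg4b and Atg4c, had log2 fold changes of -1.23, -0.70 and -2.45 with groups that overlapped and standard errors of up to 3.01, and edgeR gave -0.75 for Atg4c. Atg3 and Atg10, the conjugating enzymes of the systems, and Atg16l2, a relative of Atg16l1, ranged from 0 to 1490.1.

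The ATG8 family accounted for 44.9% of the normalized counts of all members. Gabarapl1 had 12133, 5739 and 4736 normalized counts across Trf1+/+ and 7411, 5124 and 3374 in Trf1flox/flox libraries. Gabarap, the founding member of its branch, had 6628, 3190 and 3118 against 2388, 1993 and 4096, and Gabarapl2 had 773, 953 and 1545 against 1195, 1491 and 1475. Map1lc3b, which encodes the LC3 protein most used as a marker of autophagosomes, had 4426, 5122 and 2666 against 4086, 2769 and 3179. In each of these 4 genes the groups overlapped, and the log2 fold changes lay between -0.59 (standard error 0.48, Gabarap) and 0.40 (standard error 0.52, Gabarapl2). Map1lc3a was the exception in level and steadiness, at 10.7, 528 and 344 in Trf1+/+ and 305, 377 and 504 in Trf1flox/flox libraries. It was low in Trf1+/+ replicate 1 alone. Of the exonic length of Gabarapl1, 28.3% overlaps 1700101I11Rik on the opposite strand.

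Levels of different genes can be compared only per length, and for this the normalized counts were divided by the annotated exonic length in kb. Gabarapl1 then made up 31.1% to 58.5% of the family and Gabarap 20.6% to 41.3%. Map1lc3b contributed 5.58% to 11.1%, Gabarapl2 3.15% to 12.9%, and Map1lc3a 0.09% to 7.93%. On this scale Gabarapl1 and Gabarap led the family in each of the 6 libraries, with Gabarapl1 first in 5 of them and Gabarap first in Trf1flox/flox replicate 3. The order of the 3 lower genes changed between libraries. The mean share of Gabarapl1 was 49.2% ± 6.97 (SD, n = 3) for Trf1+/+ and 47% ± 14.2 (SD, n = 3) for Trf1flox/flox libraries, a difference smaller than the spread. Map1lc3b carries an annotated exonic length of 7.52 kb over all its transcripts, against 1.18 to 2.33 kb for the others, and its level per kb would be higher if a shorter transcript were used. In Trf1+/+ replicate 2 and in Trf1flox/flox replicates 1 and 2 its place below Gabarap rests on this length. There the undivided normalized counts of Map1lc3b were above those of Gabarap, and in the other libraries they were below them.

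**Figure D4:**
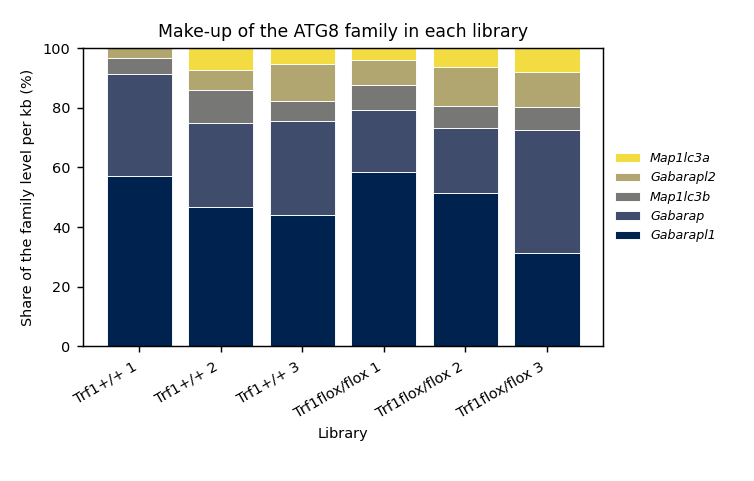
Share of each gene in the summed level of the ATG8 family, in percent of normalized counts per kb of exonic length, 1 bar per library. Gabarapl1 and Gabarap form the largest segments in each bar, and Map1lc3a is nearly missing in Trf1+/+ replicate 1.

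The cargo receptors were led by Sqstm1, which encodes p62, the receptor that is itself degraded by autophagy. It had 3502, 319 and 2481 normalized counts across Trf1+/+ and 1483, 2103 and 1331 in Trf1flox/flox libraries. The Trf1flox/flox values lay inside the Trf1+/+ range (log2 fold change 0.19, standard error 0.79), and 17.3% of the exonic length overlaps Mrnip on the opposite strand. Nbr1, a related receptor, had 143, 615 and 586 against 197, 163 and 427. Optn, which encodes the mitophagy receptor optineurin, had 0, 88.7 and 242 against 613, 338 and 45.5. Tbk1, the kinase that phosphorylates optineurin, had 545, 19.9 and 196 against 73.9, 76.5 and 161. None of the 4 had groups that did not overlap, and the log2 fold changes lay between -0.64 (Nbr1) and 2.93 (Optn, standard error 2.31, and 1.58 in DESeq2).

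**Figure D5:**
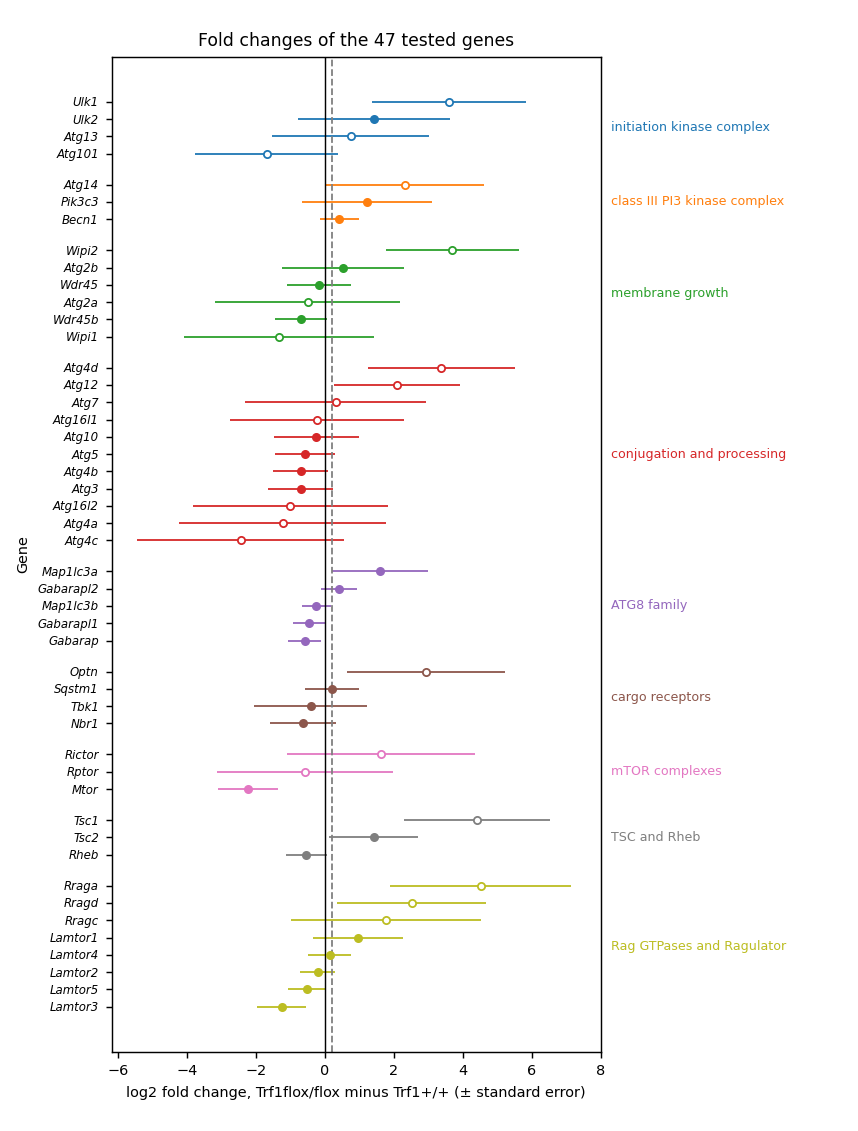
Log2 fold change (Trf1flox/flox minus Trf1+/+) with its standard error for the 47 tested genes, ordered by role. Open circles are genes at the floor in at least 1 library, the solid line is 0 and the dashed line is the median of all tested genes, 0.20; most bars cross 0, and the narrow bars belong mostly to abundant genes such as those of the ATG8 family and Ragulator.

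Beyond these members, a wider list of 67 genes of autophagy and of mTOR signaling was followed, of which 66 were listed and 58 tested. Of these, 33 were higher and 25 lower in Trf1flox/flox libraries, at a median log2 fold change of 0.22, close to that of all genes. Of them, 2 passed an unadjusted p of 0.05 in limma, a share like the 3.13% of all genes, and none an adjusted p. Akt2, which encodes a kinase upstream of the TSC complex, had 0.891, 60.5 and 0.985 normalized counts across Trf1+/+ and 392, 346 and 193 in Trf1flox/flox libraries (log2 fold change 5.60, standard error 2.30, adjusted p = 0.970 in limma, and 3.79 in edgeR). Rps6kb2, which encodes the mTORC1 substrate S6K2, had 0, 0 and 27.6 against 190, 211 and 75.1 (log2 fold change 5.57, standard error 2.33, adjusted p = 0.970 in limma, and 4.03 in edgeR). In both, each Trf1flox/flox library was higher than any Trf1+/+ library. Both passed the filter only through the Trf1flox/flox libraries, where they were high, so this carries no weight. Genes of the V-ATPase, the proton pump on which Ragulator sits at the lysosome, were taken by symbol and not by membrane or cell type. One of these genes, Atp6v1g3, is also among the collecting duct markers used here. Of the 22 tested genes, 7 were higher and 15 lower, with a median log2 fold change of -0.41. Over all genes, 55.9% were higher and the median was 0.20. The V-ATPase median was -0.20 without Trf1+/+ replicate 1, where that of all genes was -0.03. It was -0.19 after upper-quartile scaling, where that of all genes was 0.38. Among them Atp6v1c2, had an unadjusted p under 0.05 (0.022, adjusted p = 0.970), with 677, 952 and 220 normalized counts across Trf1+/+ and 45.5, 52.5 and 95.8 in Trf1flox/flox libraries.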

How the data were processed

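RNA-seq was made from 500 sorted kidney cells per library in 3 Trf1+/+ and 3 Trf1flox/flox mice, with oligo(dT) priming, template switching and PCR, and the libraries were non-directional. The authors aligned the reads with TopHat2 (2.0.10) and Bowtie (1.0.0) and counted them with HTSeq (0.6.1), per the processing notes in the labels, which also list SAMtools (0.1.19), FastQC (0.11.7) and DESeq2, without a role or version for the last. The notes name GRCm39 and the study's methods GRCm38; coordinates and exonic lengths here come from the GENCODE annotation of GRCm38 and not from the deposited file. The deposited values are normalized counts (a signal of reads divided by a size factor per library). All of them (100%) were whole multiples of the value of 1 read within 0.01 of a read, so the reads were recovered. The setting for strand in the counting was not given in the sources used here, and reads shared with near-identical copies (the pseudogene Atg4a-ps for Atg4a) may be split between genes.

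Genes that reached 10 normalized counts in 3 or more libraries were tested on log2(normalized count + 1) with limma 3.58.1 (R 4.3.3), with a trend in the prior variance and Benjamini-Hochberg adjustment over all 9966 genes. The recovered reads were also fitted with edgeR 4.0.16 (quasi-likelihood test) and DESeq2 1.42.0. The fits were tested on simulated data. Marker sums were compared with exact permutation tests. The members and lists were chosen with earlier results of these data known. Members were named with values in each library where the groups did not overlap, where the unadjusted p in limma was under 0.05, or where they belonged to a list of core genes; others are given by range. Genes of the wider lists were named at an unadjusted p under 0.05, and 1 gene of these lists is not reported here. Alternatives were upper-quartile scaling, a pseudocount of 5, no filter or one of 50 normalized counts, array weights, the count tests, each library left out in turn, the 2 libraries with most zeros left out together and, chosen after seeing the data, no trend in the prior variance.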

Additional observations from a re-analysis of the deposited data

How the results depend on the processing

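No member passed an adjusted p of 0.05 under any of the 15 alternatives, and over all genes 58 passed in DESeq2 alone. The 5 members whose groups did not overlap (10.6%, against 8.68% of all tested genes) became 6 under upper-quartile scaling, where Lamtor3 joined them. The share of all genes under that scaling is not given here, so nothing is read from this addition. The separate members became 6 to 15 when a library was left out: 11 without Trf1+/+ replicate 1, 8 without replicate 2 and 15 without replicate 3, and 11, 6 and 8 without Trf1flox/flox replicates 1, 2 and 3. They became 14 without Trf1+/+ replicate 1 and Trf1flox/flox replicate 2, the 2 libraries with most zeros. Fewer libraries overlap less by construction, and 15.2% to 29.4% of all tested genes were then separate. Upper-quartile scaling moved the median of all genes to 0.38 and that of the members to 0.03.

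Of the 29 named members, 17 kept the sign of their log2 fold change throughout, Mtor and Tsc1 among them. The sign changed in Pik3c3 (-0.65), Atg7 (-0.24) and Tbk1 (0.71) with array weights. It changed in Atg7 (-0.24 in both), Sqstm1 (-0.29 and -0.34) and Rictor (-0.61 and -0.67) with edgeR and DESeq2. It changed in Pik3c3 (-2.03), Atg7 (-0.13), Atg12 (-0.082), Map1lc3a (-0.12) and Tbk1 (0.78) with the 4 libraries left. Leaving out a library gave log2 fold changes from -0.99 to 2.62 for Pik3c3, -1.23 to 0.26 for Atg5, -2.03 to 2.21 for Atg7, -0.23 to 3.30 for Atg12, -2.34 to 1.02 for Atg16l1, -0.14 to 2.61 for Map1lc3a, -0.87 to 0.85 for Sqstm1, -1.74 to 0.61 for Tbk1, -2.79 to 0.92 for Rptor, -0.20 to 4.09 for Rictor, -1.11 to 0.0036 for Rheb and -0.69 to 1.83 for Lamtor1. The cause was not tested. No paired analysis was possible because the replicate numbers used here follow the order of the samples, and the labels give none that could pair mice.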

Other observations

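Outside the members, further genes of the mTOR network had groups that did not overlap, and they are named here after their values were seen. In the wider list of 58 tested genes, 10 were so placed, 6 higher and 4 lower in Trf1flox/flox libraries (17.2%, against 8.68% of all tested genes). Besides Akt2 and Rps6kb2, the higher ones were Mapkap1, which encodes an mTORC2 subunit (7.13, 56.3 and 179 against 243, 457 and 285 normalized counts), Tti1, which encodes an assembly factor of mTOR (5.34, 3.31 and 24.6 against 110.0, 110.4 and 110.3), Depdc5, which encodes a GATOR1 subunit that restrains mTORC1 (0, 3.31 and 6.90 against 50.7, 12 and 26.2), and Uvrag, which encodes a partner of Beclin 1 (12.5, 71.3 and 26.6 against 82.5, 107 and 169). The lower ones included Seh1l, which encodes a GATOR2 subunit (1481, 283 and 600.1 against 0, 192 and 199), Prkag2, which encodes an AMPK subunit (348, 278 and 376 against 161, 221 and 196), and Bnip3l, which encodes a mitophagy receptor (2094, 952 and 1042 against 859, 767 and 612). Depdc5 reached 10 normalized counts in the Trf1flox/flox libraries alone. Akt2, Rps6kb2 and Tti1 reached it in each Trf1flox/flox library but not in most Trf1+/+ libraries. These genes, Depdc5 included, were thus tested only through the group where they were high. Their place among the higher genes carries no weight, and the counts of 10 and 6 include them. Of the genes in this paragraph, Akt2 and Rps6kb2 alone had an unadjusted p under 0.05 in limma.

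In the V-ATPase list, 3 of 22 genes (13.6%) had groups that did not overlap, each of them lower in Trf1flox/flox libraries. Of all tested genes, 8.68% were separate in either direction and 3.33% were separate and lower. The 3 were Atp6v1c2, Atp6v1b2 (3297, 3308 and 2981 against 2411, 696 and 1899) and Atp6v1e1 (7518, 3361 and 3355 against 2413, 2835 and 2960). After upper-quartile scaling the genotypes overlapped in Atp6v1b2 and Atp6v1e1. The adjusted p of the 3 genes in limma was 0.970.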
